A study of Mus musculus with 8 samples.

Results

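The immediate-early response genes described here are 10 genes, Fos, Fosb, Jun, Junb, Jund, Egr1, Ier2, Ier3, Zfp36 and Dusp1, taken by their symbols from a table of 55487 genes. All 10 were found once each, and all 10 had enough reads to be tested. The RNA came from ileum, the last segment of the small intestine, of irinotecan-treated mice, and was sequenced in bulk after poly(A) selection. The groups were 4 mice without Gsdme (genotype Gsdme-/-, here Gsdme_KO) and 4 mice with it (genotype Gsdme+/+, here WT), with 1 library per mouse. Both groups received irinotecan, a topoisomerase I inhibitor, and untreated mice were not analysed here, so what is compared is the genotypes under the drug. Dose, time after the drug, age and sex were not given in the sources used here. Whether the mice of the 2 genotypes were littermates or were killed on the same day was likewise not given.

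Immediate-early genes are switched on within minutes of a stimulus, by transcription factors already present in the cell, so their transcription needs no new protein. MAP kinases and other signalling enzymes activate SRF with its partners of the Elk family, and CREB, which bind serum response elements and cyclic AMP response elements in the promoters. Many of the transcripts are short-lived, because AU-rich elements in their 3′ ends are bound by decay factors. The group holds AP-1 subunits, which bind DNA as Fos-Jun or Jun-Jun dimers, and brakes such as Dusp1, a phosphatase that switches MAP kinases off. In intestine these genes respond to growth factors, injury and microbial products, and they also respond to the handling of tissue.

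Regulatory letters of the genes on which the results turn are shown first. The promoters of Fos and Junb are the 200 bases before the RefSeq start in the GRCm38.p6 promoter table, at chr12:85473690-85473889 on the plus strand and chr8:84978749-84978948 on the minus strand. The 30-base stretch before the Dusp1 start lies at chr17:26508597-26508626 on the minus strand, inside an intron of a longer Dusp1 model. Capitals mark TGACG, the core of the cyclic AMP response element, and in Dusp1 the whole palindrome TGACGTCA.
Fos promoter: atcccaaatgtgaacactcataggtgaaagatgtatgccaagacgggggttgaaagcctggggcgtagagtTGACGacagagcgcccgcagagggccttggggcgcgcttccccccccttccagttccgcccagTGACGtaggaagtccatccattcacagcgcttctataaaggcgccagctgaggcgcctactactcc
Junb promoter: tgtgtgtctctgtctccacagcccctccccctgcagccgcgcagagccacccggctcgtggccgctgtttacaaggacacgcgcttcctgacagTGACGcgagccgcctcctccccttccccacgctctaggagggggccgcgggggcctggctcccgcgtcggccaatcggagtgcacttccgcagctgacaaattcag
Dusp1 promoter stretch: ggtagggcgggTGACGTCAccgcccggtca
In the 250 bases before the start, TGACG on either strand was found in 4 of the 8 genes that the promoter table held, namely Fos, Fosb, Junb and Dusp1, and in 17.8% of 32851 mouse promoters. The palindrome TGACGTCA, which contains TGACG on both strands, was found in Dusp1 and in 1.55% of promoters. The AP-1 site TGANTCA was found in 0 of the 8 genes and in 6.75% of promoters, and TATAAA in Fos and in 7.59% of promoters. GGGCGG, the letters of a GC box, was in 6 of the 8 genes and in 32.7% of promoters. A CArG box, the SRF-binding part of the serum response element, was found in Zfp36 and in 1.47% of promoters. Letters further than 250 bases before the start were not searched, so a gene without a match may hold the element upstream of that window. The Jund window ends at chr8:70697738, well before the GENCODE start of Jund at 70698949. Letters just before that GENCODE start were not searched, so the counts take Jund as without a match on its RefSeq start alone. A match describes letters and does not show binding. The table did not match Egr1 or Ier2.

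The AU-rich letters of 4 transcripts are shown because Zfp36 encodes tristetraprolin, the protein that binds TATTTAT in RNA (UAUUUAU) and starts decay, and its own transcript, with those of Fos, Ier3 and Dusp1, carries them. Each line is 30 bases of the 3′ untranslated region in the GENCODE M21 transcript on GRCm38, with TATTTAT in capitals. They lie at chr12:85477102-85477131 (plus strand), chr17:35822484-35822513 (plus strand), chr7:28376958-28376987 (minus strand) and chr17:26506159-26506188 (minus strand), in the order of the lines.
Fos: gtgttttcaattTATTTATtaagatggatt
Ier3: ctaattaaTATTTATgTATTTATgtatatc
Zfp36: ccttTATTTATgacgacttTATTTATtgta
Dusp1: ggagctggtcctTATTTATttaacaccccc
TATTTAT occurred at least once in the 3′ untranslated region of 7 of the 10 genes, all but Junb, Egr1 and Ier2. Of the 14174 tested genes with such a region, 27.4% had it, and of the 10935 whose region was no longer than the longest among the 10 genes (2145 bases), 19.0% had it. Ier3 held 4 copies, Zfp36 and Dusp1 held 3 each and Fos held 2, whereas 9.31% of all tested genes with a 3′ untranslated region held 2 or more. The genes were also compact. Their transcripts had between 1 exon (Jun, Junb, Jund and Ier2) and 4 exons (Fos, Fosb and Dusp1), while 22.3% of 14586 tested coding genes had 4 exons or fewer and the median was 9.

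The libraries held between 15617407 and 23437343 reads in genes, and the deposited values are read counts divided by 1 size factor per library, called normalized counts below. Gsdme, the targeted gene, had 113, 187, 634 and 464 normalized counts in KO4, KO5, KO7 and KO8, against 3376, 2169, 3164 and 2696 in WT3, WT5, WT7 and WT8. Every Gsdme_KO library lay below every WT library (log2 fold change -3.32, two-sided exact permutation p = 0.0286, the smallest that 4 against 4 allows). Enterocyte transcripts were detected in all 8 libraries, since 15 of 16 enterocyte markers were above 0 in each. 2 Gsdme_KO libraries, KO4 and KO5, stood apart. All 12 B cell markers were above every WT library in both, with summed levels of 311 to 11670 normalized counts in Gsdme_KO and 268 to 407 in WT, although Cr2 and Blk were at 0 in some libraries. All 10 T cell markers (sums of 1137 to 3140 in Gsdme_KO and 617 to 1178 in WT) and 9 of 10 macrophage and neutrophil markers (5981 to 13232 in Gsdme_KO and 6449 to 9017 in WT) were also above every WT library in KO4 and in KO5. Of the 16 enterocyte markers, 13 were below every WT library in KO4 and 11 in KO5 (sums of 187792 to 659254 in Gsdme_KO and 362897 to 677405 in WT), and Lct was at 0 in at least 1 library. Fold changes that move most with KO4 and KO5 are therefore given with and without them. Leaving them out does not even out the T cell markers. Their sums were 1137 in KO7 and 1183 in KO8, against 1178, 640, 789 and 617 in WT3, WT5, WT7 and WT8. KO4 and KO5 also differed from each other. Of 8 smooth muscle markers, 5 were below and 1 above every WT library in KO4, while 0 were below and 6 above in KO5. Among the WT libraries, WT8 had the lowest enterocyte sum (362897) and the highest fibroblast and stroma sum (38892). In bulk RNA, a different number of cells of a type and a different amount of RNA per cell cannot be told apart.

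None of the 10 genes passed the test for a genotype difference. The test was limma-trend on log2(normalized count + 1) over the 16352 genes that averaged 10 or more normalized counts, and the lowest Benjamini-Hochberg adjusted p among the 10 genes was 0.849. Over all tested genes that test called 1 gene, or 0.00612%. The targeted gene Gsdme was not called either, at a log2 fold change of -3.32 and a limma adjusted p of 0.786. A gene that was not called may therefore still differ. At an unadjusted p under 0.05 limma took 0 of the 10 genes, and 4.38% of all genes. edgeR's quasi-likelihood test on whole reads recovered from the table called 0 of the 10 genes after adjustment, where it called 0.00612% of all genes, and took 0 of the 10 at an unadjusted p under 0.05, where it took 6.01% of all genes. DESeq2 called 0 of the 10 genes after adjustment, where it called 0.0599% of the 15024 genes it adjusted. At an unadjusted p under 0.05, DESeq2 took 2 of the 10, Dusp1 and Ier3, and 6.94% of all genes. In 0 of the 10 genes did the 4 Gsdme_KO libraries lie wholly above or below the 4 WT libraries, which was so for 2.5% of all genes.

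The fold changes of the 10 genes ran in both directions. The mean was higher in Gsdme_KO for Ier3, Dusp1, Junb and Zfp36 on the log2 scale, and lower for Fos, Fosb, Jun, Ier2, Jund and Egr1. Their median log2 fold change was -0.04, beside 0.00 over all tested genes, of which 8275 were positive and 8077 negative. The largest differences belonged to Ier3 (0.55), Dusp1 (0.45) and Fos (-0.41), and each had a 95% interval that reached across 0.

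**Figure D1:**
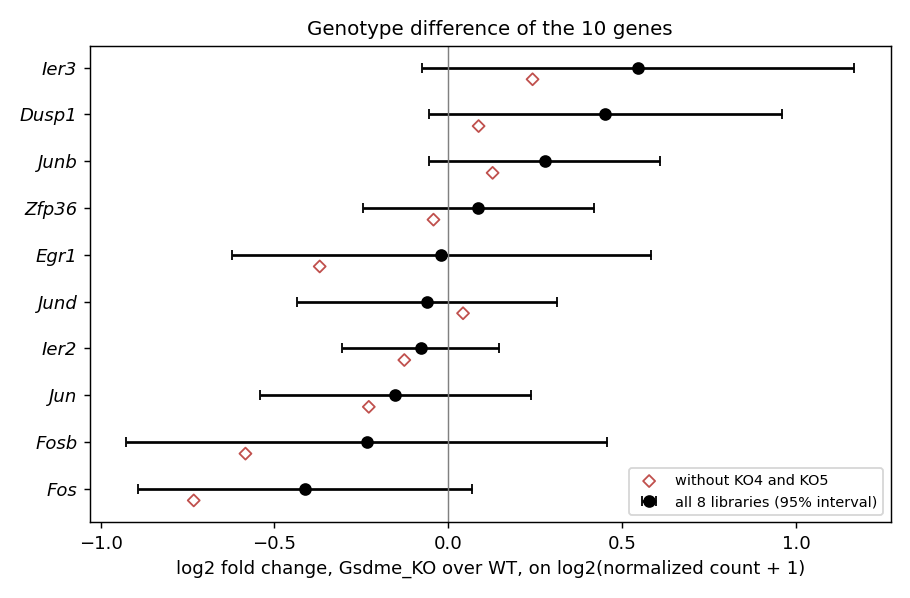
Log2 fold change of each gene, Gsdme_KO over WT, on the log2(normalized count + 1) scale, with the 95% interval from limma over all 8 libraries (black) and the value without KO4 and KO5 (open diamonds). All 10 intervals include 0, and without those libraries Fos lies at -0.73 while Dusp1 lies at 0.09.

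Fos encodes the c-Fos subunit of AP-1, which cannot form homodimers and needs a Jun partner (ENSMUSG00000021250, chromosome 12, 85473890 to 85477273, plus strand, GRCm38, as for all positions below). It had 2672, 2287, 1672 and 1500 normalized counts in KO4, KO5, KO7 and KO8, against 3134, 2739, 2872 and 1945 in WT3, WT5, WT7 and WT8. All 4 Gsdme_KO libraries lay below the WT mean and KO7 and KO8 below every WT library, but WT8 lay below KO4 and KO5, so the groups overlapped. The means were 2033 ± 544 in Gsdme_KO and 2673 ± 512 in WT (SD, n = 4 each), a log2 fold change of -0.41 (SE 0.212, 95% interval -0.89 to 0.07, limma adjusted p = 0.849). Without KO4 and KO5 the log2 fold change of Fos was -0.73 (SE 0.180), with an unadjusted limma p of 0.00351 and a Benjamini-Hochberg adjusted p of 0.999. The values of Fos in KO4 and KO5, the libraries rich in lymphocyte markers, were thus the 2 highest of its group, and the part of those cells in them was not tested.

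Fosb, which encodes another Fos-family partner of Jun proteins (ENSMUSG00000003545, chromosome 7, 19302696 to 19310051, minus strand), was the least abundant of the 10, with 43 to 147 reads per library. It had 63.6, 110, 67.0 and 39.2 normalized counts in KO4, KO5, KO7 and KO8, against 84.0, 59.5, 96.3 and 74.5 in WT3, WT5, WT7 and WT8. Both its highest value, in KO5, and its lowest, in KO8, were in Gsdme_KO, which enclosed the whole WT range. Its log2 fold change was -0.23 (SE 0.304, 95% interval -0.93 to 0.46, limma adjusted p = 0.894), and -0.58 without KO4 and KO5.

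The Jun genes did not share a direction. Jun (ENSMUSG00000052684, chromosome 4, 95049034 to 95052222, minus strand), which encodes c-Jun, the main partner of Fos, had 2810, 2328, 2862 and 1848 normalized counts in KO4, KO5, KO7 and KO8, against 2667, 2666, 3381 and 2194 in WT3, WT5, WT7 and WT8. The lowest library was KO8 and the highest WT7, with the others mixed between the genotypes. The means of Jun were 2462 ± 475 in Gsdme_KO and 2727 ± 489 in WT (SD, n = 4 each), a log2 fold change of -0.15 (95% interval -0.54 to 0.24, limma adjusted p = 0.876). With 1 library left out it lay between -0.25 (without WT8) and -0.02 (without KO8), and it was -0.40 with array quality weights.

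Junb (ENSMUSG00000052837, chromosome 8, 84974484 to 84978718, minus strand) encodes a Jun protein that can dampen the activity of c-Jun on some promoters. Its normalized counts were 3306, 2560, 2365 and 2366 in KO4, KO5, KO7 and KO8, against 2154, 2690, 2040 and 1859 in WT3, WT5, WT7 and WT8. All 4 Gsdme_KO libraries lay above the WT mean and above 3 of the 4 WT libraries, and WT5 alone reached into the Gsdme_KO range. The means were 2649 ± 448 in Gsdme_KO and 2186 ± 358 in WT (SD, n = 4 each), a log2 fold change of 0.28 (SE 0.146, 95% interval -0.05 to 0.61, limma adjusted p = 0.849). Without KO4 and KO5 it was 0.13.

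Jund (ENSMUSG00000071076, chromosome 8, 70698949 to 70700616, plus strand), the Jun gene that is commonly expressed without a stimulus, had 4161, 5093, 6120 and 4609 normalized counts in KO4, KO5, KO7 and KO8, against 5458, 6096, 5449 and 3901 in WT3, WT5, WT7 and WT8. KO7 and WT5 were nearly equal at the top, and WT8 was lowest. The means of Jund were 4996 ± 841 in Gsdme_KO and 5226 ± 934 in WT (SD, n = 4 each), a log2 fold change of -0.06 (95% interval -0.43 to 0.31, limma adjusted p = 0.948), whose sign turned to 0.04 without KO4 and KO5.

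**Figure D2:**
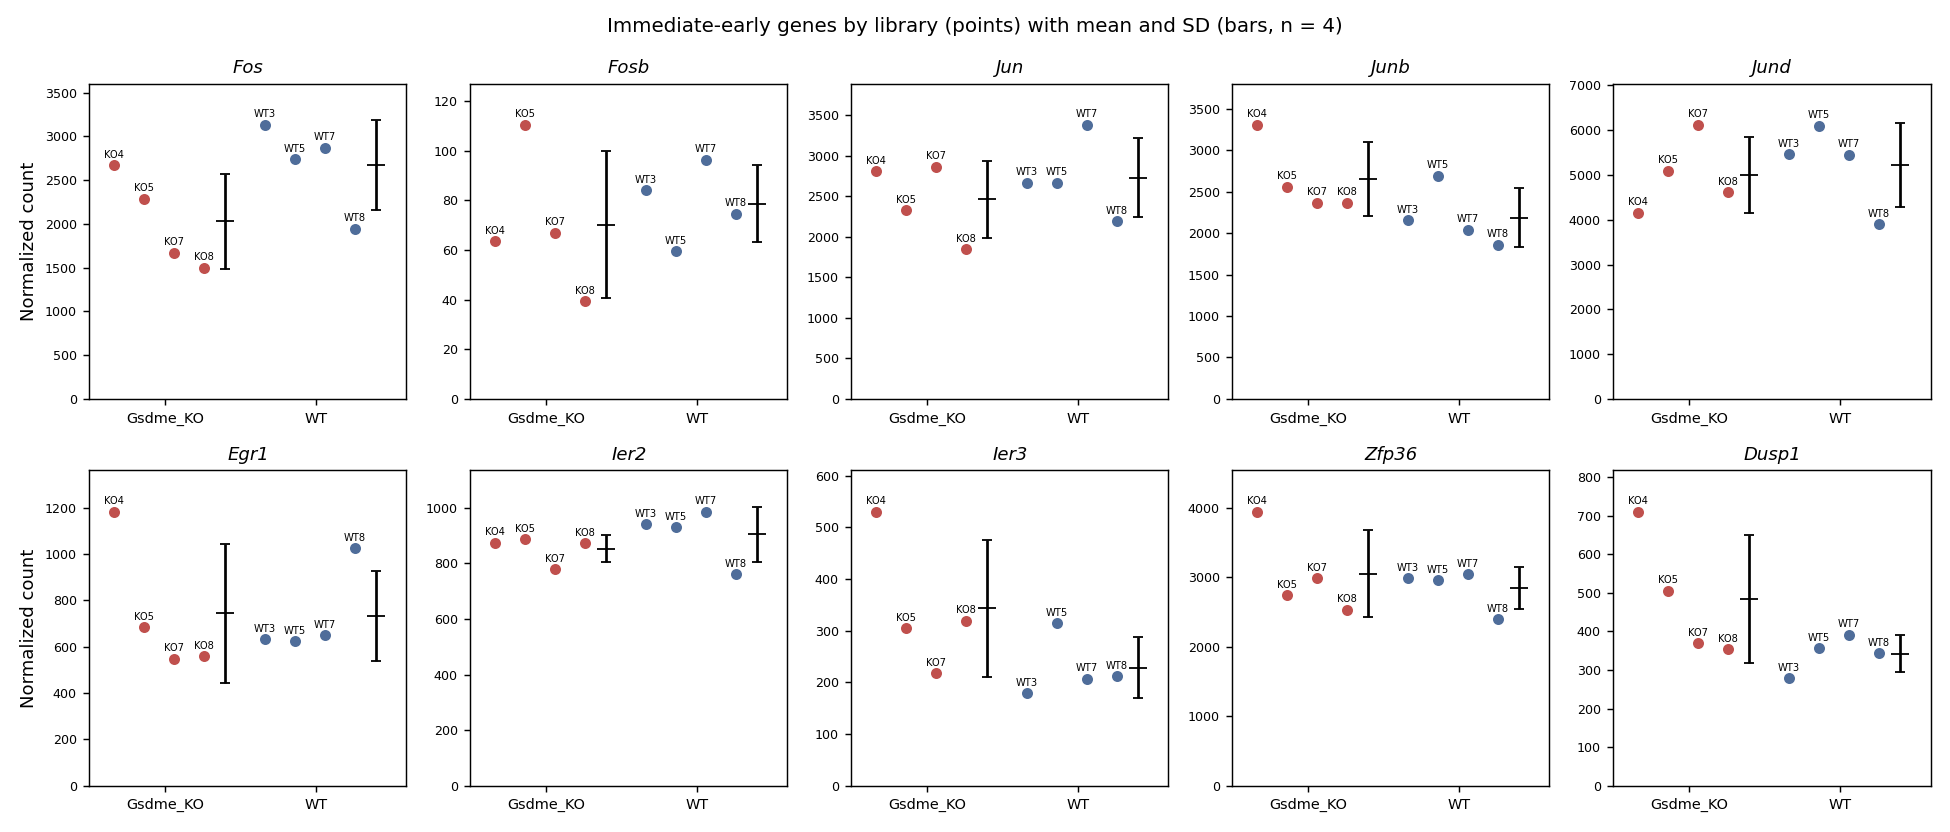
Normalized count of each of the 10 genes in each library (points, named), Gsdme_KO left and WT right, with the mean and SD of 4 libraries (bars). The groups overlap in every panel, KO4 is the top library for Junb, Egr1, Ier3, Zfp36 and Dusp1, and Fos in KO7 and KO8 lies below all 4 WT libraries.

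Egr1 (ENSMUSG00000038418, chromosome 18, 34859823 to 34864984, plus strand) encodes a zinc finger transcription factor induced through SRF and Elk proteins. It had 1184, 686, 548 and 560 normalized counts in KO4, KO5, KO7 and KO8, against 632, 625, 651 and 1026 in WT3, WT5, WT7 and WT8. 1 library in each genotype, KO4 and WT8, stood well above the other 3. The means were 745 ± 300 in Gsdme_KO and 733 ± 195 in WT (SD, n = 4 each), a log2 fold change of -0.02 (95% interval -0.62 to 0.58, limma adjusted p = 0.991). That interval is wide enough to hold a sizeable difference in either direction. The sign of Egr1 was not settled, at -0.37 without KO4 and KO5 and 0.15 without WT8.

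Ier2 (ENSMUSG00000053560, chromosome 8, 84661331 to 84662852, minus strand), which encodes a nuclear protein of the early response, was the steadiest of the 10 genes. It had 875, 887, 780 and 873 normalized counts in KO4, KO5, KO7 and KO8, against 942, 930, 987 and 761 in WT3, WT5, WT7 and WT8. All 4 Gsdme_KO libraries lay below 3 of the 4 WT libraries, and WT8 was lowest of all. The means of Ier2 were 853 ± 49.6 in Gsdme_KO and 905 ± 99.2 in WT (SD, n = 4 each), a log2 fold change of -0.08 with the narrowest interval of the 10 genes, -0.30 to 0.15 (limma adjusted p = 0.889).

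Ier3 and Dusp1 had the largest positive differences, and KO4 was the highest library of both. Ier3 (ENSMUSG00000003541, chromosome 17, 35821684 to 35822923, plus strand), an early response gene also induced by NF-kappaB and p53 that modulates cell death and ERK signalling, had 531, 305, 218 and 319 normalized counts in KO4, KO5, KO7 and KO8, against 179, 314, 207 and 212 in WT3, WT5, WT7 and WT8. KO4 was far above all others, while KO5 and KO8 lay close to WT5 and KO7 close to WT7 and WT8. The means were 343 ± 133 in Gsdme_KO and 228 ± 59.3 in WT (SD, n = 4 each), a log2 fold change of 0.55 (SE 0.274, 95% interval -0.08 to 1.17, limma adjusted p = 0.849). Its DESeq2 p was 0.0470 unadjusted and 0.689 after Benjamini-Hochberg adjustment. The log2 fold change of Ier3 was 0.31 without KO4 and 0.24 without KO4 and KO5.

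Dusp1 (ENSMUSG00000024190, chromosome 17, 26505590 to 26562128, minus strand) encodes the phosphatase MKP-1, which dephosphorylates p38, JNK and ERK kinases and so limits the response that induced it. It had 711, 505, 369 and 353 normalized counts in KO4, KO5, KO7 and KO8, against 279, 356, 392 and 343 in WT3, WT5, WT7 and WT8. KO4 and KO5 lay above every WT library, whereas KO7 and KO8 lay within the WT range. The means were 485 ± 165 in Gsdme_KO and 342 ± 47.0 in WT (SD, n = 4 each), a log2 fold change of 0.45 (SE 0.223, 95% interval -0.06 to 0.96, limma adjusted p = 0.849), with a DESeq2 p of 0.0431 unadjusted and 0.671 after Benjamini-Hochberg adjustment. Without KO4 and KO5 the log2 fold change of Dusp1 was 0.09. The 2 libraries that carried the difference are those with the raised B cell, T cell and myeloid markers given above, and the part of those cells in the Dusp1 values was not tested.

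Zfp36 (ENSMUSG00000044786, chromosome 7, 28376784 to 28380253, minus strand), the tristetraprolin gene, had 3944, 2742, 2982 and 2534 normalized counts in KO4, KO5, KO7 and KO8, against 2983, 2956, 3046 and 2393 in WT3, WT5, WT7 and WT8. Apart from KO4 at the top, the genotypes covered the same range. The means of Zfp36 were 3050 ± 623 in Gsdme_KO and 2844 ± 303 in WT (SD, n = 4 each), a log2 fold change of 0.09 (95% interval -0.25 to 0.42, limma adjusted p = 0.920), which was -0.04 without KO4.

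Because Fos differed in sign from Junb, Ier3 and Dusp1, the ratio of each pair among the 10 genes was also taken within each library, where the library's size factor cancels. This was chosen after the values were seen, so the ratios are given as a description with no test. In 3 of 45 pairs the ratio did not overlap between the genotypes, beside 2.84% of the 133685776 pairs of all tested genes (with 1 added to each value there). All 3 share Fos, so they are not separate results, and all 3 were lower in Gsdme_KO. There were 0.808, 0.893, 0.707 and 0.634 Fos counts per Junb count in KO4, KO5, KO7 and KO8, against 1.46, 1.02, 1.41 and 1.05 in WT3, WT5, WT7 and WT8. Junb thus had more normalized counts than Fos in all 4 Gsdme_KO libraries and fewer in all 4 WT libraries, a mean difference of -0.69 in the log2 ratio. Which gene is higher depends on scaling to transcript length, since per kilobase Junb was above Fos in 6 of the 8 libraries, WT5 and WT8 among them. The ratio of Fos to Ier3 was 5.03, 7.50, 7.66 and 4.70 in KO4, KO5, KO7 and KO8, against 17.5, 8.71, 13.9 and 9.18 in WT3, WT5, WT7 and WT8, a difference of -0.96. For Fos to Dusp1 the ratio was 3.76, 4.52, 4.53 and 4.25 in KO4, KO5, KO7 and KO8, against 11.2, 7.69, 7.33 and 5.68 in WT3, WT5, WT7 and WT8, a difference of -0.86. Of these ratios, Fos to Dusp1 was the most even within Gsdme_KO. The low ratios were reached in different ways, since in KO4 and KO5 Dusp1 was high and Fos within the WT range, and in KO7 and KO8 Fos was low and Dusp1 within the WT range.

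**Figure D3:**
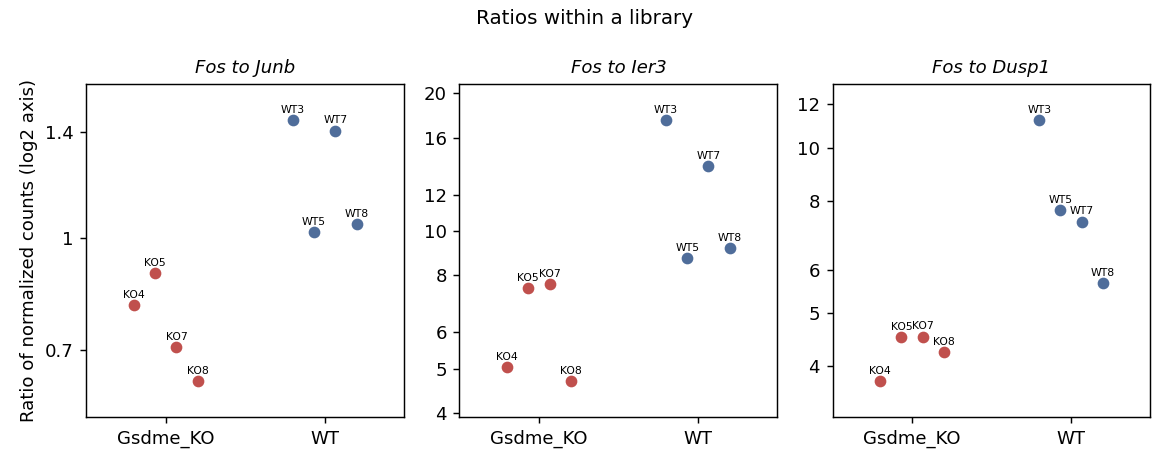
Ratio of normalized counts within each library for the 3 pairs whose genotypes did not overlap, Gsdme_KO left and WT right, on log2 axes that do not start at 0. Fos to Dusp1 lies between 3.76 and 4.53 in Gsdme_KO and between 5.68 and 11.2 in WT.

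The libraries differed more in some genes than in others, whatever their genotype. The highest library was 1.30 times the lowest for Ier2, 1.57 times for Jund and 2.96 times for Ier3. The coefficient of variation in Gsdme_KO and in WT was 5.81% and 10.96% for Ier2, 34.1% and 13.7% for Dusp1, 38.7% and 25.99% for Ier3, 40.2% and 26.6% for Egr1, and 42.2% and 19.7% for Fosb. KO4 was the highest library for 5 of the 10 genes, KO8 the lowest for Fos, Fosb and Jun, and WT8 the lowest for Junb, Jund, Ier2 and Zfp36. The high values of KO4 were not shared by the whole group, because Fosb and Jund in KO4 lay below their WT means. The median of the 10 genes' log2 differences from their WT means was 0.27, -0.02, 0.02 and -0.16 in KO4, KO5, KO7 and KO8, against 0.03, 0.06, 0.12 and -0.23 in WT3, WT5, WT7 and WT8. By this median WT8 was lowest, whereas by the mean of the standardised log2 profiles KO8 was lowest (-1.35) and WT8 next (-1.26).

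**Figure D4:**
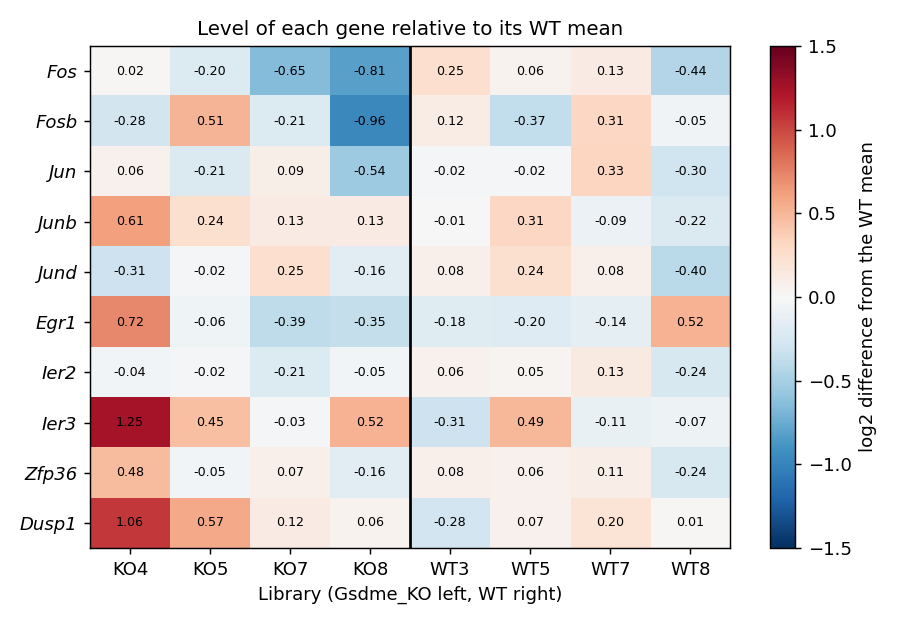
Log2 difference of each gene in each library from the gene's WT mean, Gsdme_KO in the left 4 columns and WT in the right 4, with red above and blue below that mean. KO4 is red for Junb, Egr1, Ier3, Zfp36 and Dusp1, KO8 is blue for Fos, Fosb and Jun, and WT8 is below the mean for all genes but Egr1 and Dusp1.

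Levels between genes were compared per kilobase of the GENCODE transcript, over all 8 libraries. Jund was highest, at 3064 ± 499 normalized counts per kilobase, and exceeded Junb (1336 ± 248) in every library (SD, n = 8). Fos (1116 ± 283), Zfp36 (1056 ± 167) and Jun (814 ± 147) came next, and each overlapped its neighbour in the order. Ier2 followed at 578 ± 51.0 normalized counts per kilobase, above Ier3 in every library. Ier3 (253 ± 100), Dusp1 (208 ± 68.3) and Egr1 (165 ± 52.2) overlapped one another, and Fosb was lowest at 19.6 ± 5.91, below Egr1 in every library. Fos was thus more abundant than Fosb in this tissue. Other Fos-family genes were not compared per kilobase. Without scaling to length, Fosl2 had 3998 to 6567 normalized counts, above Fos (1500 to 3134) in every library. Fosl1 had 25.6 to 158, below Fos in every library.

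5 of the 10 genes overlap a gene on the opposite strand, and the strand setting of the counting is not given in the sources used here, so reads of such pairs may be shared. Junb overlaps Prdx2, which had 2639 to 3249 normalized counts, and the Dusp1 model overlaps Ergic1, with 995 to 1425. Jun overlaps Junos (8.85 to 20.3 normalized counts), Jund overlaps Gm11175 (21.9 to 46.4) and Zfp36 overlaps Gm44710 (2.38 to 20.4), all far below the gene they overlap. The values of Junb and Dusp1 are the less certain for it.

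Genes that act beside, above or below the 10 genes were taken from 10 lists, and 0 of the 184 tested genes on them passed after adjustment by limma, edgeR or DESeq2. At an unadjusted p under 0.05 there were 7 by limma (3.8%, beside 4.38% of all tested genes), 12 by edgeR (6.52%, beside 6.01%) and 19 by DESeq2 (10.3%, beside 6.94%). Of 15 other AP-1 and related bZIP subunits, 7 were higher and 8 lower by the mean, with a median log2 fold change of -0.04 (-0.08 without KO4 and KO5). The most abundant was Maf, with 2703, 4060, 8841 and 6813 normalized counts in KO4, KO5, KO7 and KO8, against 8138, 7036, 6143 and 5617 in WT3, WT5, WT7 and WT8. Maf was low in KO4 and KO5 alone, and its log2 fold change of -0.39 was 0.22 without them. Fosl2 was at -0.15 (0.05 without KO4 and KO5), and the smallest unadjusted p belonged to Jdp2, a repressor of AP-1, at 0.56 (limma adjusted p = 0.849), which was 0.14 without KO4 and KO5. Of 43 other early response genes, 26 were higher and 17 lower, with a median of 0.06 that turned to -0.03 without KO4 and to -0.10 without KO4 and KO5. Trib1, a pseudokinase gene, had 2282, 2380, 2097 and 1796 normalized counts in KO4, KO5, KO7 and KO8, against 2722, 2715, 3008 and 2795 in WT3, WT5, WT7 and WT8. The genotypes of Trib1 did not overlap, which was so for 1 of the 43 genes of this list and for 2.5% of all tested genes. The log2 fold change of Trib1 was -0.40 (SE 0.0994), with an unadjusted limma p of 0.00315 and a Benjamini-Hochberg adjusted p of 0.849. Its value without KO4 and KO5 was -0.53. The abundant Mcl1 and Klf6 were at -0.05 and -0.14 with all libraries, and at -0.19 and -0.26 without KO4 and KO5.

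Egr2 and Egr3, chosen for naming after their values were seen, followed KO4 and KO5. Egr3 had 183, 92.4, 21.9 and 24.6 normalized counts in KO4, KO5, KO7 and KO8, against 19.3, 11.9, 33.2 and 33.1 in WT3, WT5, WT7 and WT8. Egr2 had 89.4, 78.8, 29.2 and 40.2 in KO4, KO5, KO7 and KO8, against 31.8, 21.4, 22.1 and 46.4 in WT3, WT5, WT7 and WT8. The log2 fold change of Egr3 was 1.26 with all libraries and 0.04 without KO4 and KO5, and that of Egr2 was 0.87 and 0.24. Both genes are known to be induced by antigen receptors in lymphocytes, and both were raised in the libraries with raised B cell and T cell markers. The part of those cells was not tested.

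The other dual-specificity phosphatases, relatives of Dusp1, had 10 of 12 positive values and a median log2 fold change of 0.22, which was -0.01 without KO4 and KO5. Dusp2, an activation-induced phosphatase of immune cells, had 149, 104, 18.3 and 21.9 normalized counts in KO4, KO5, KO7 and KO8, against 6.81, 9.53, 18.8 and 19.9 in WT3, WT5, WT7 and WT8 (log2 fold change 1.92, limma adjusted p = 0.849). KO4 and KO5 alone stood out, and without them Dusp2 was at 0.63. Dusp6, the ERK-specific phosphatase, had 6855, 5254, 2114 and 2161 normalized counts in KO4, KO5, KO7 and KO8, against 2609, 4461, 2907 and 2573 in WT3, WT5, WT7 and WT8. KO4 and KO5 lay above every WT library and KO7 and KO8 below every one, so its log2 fold change of 0.23 was -0.51 without KO4 and KO5. Dusp3 was at 0.01 with all libraries.

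Upstream of the 10 genes, 29 kinases and transcription factors had 15 positive and 14 negative values with a median of 0.02 (0.03 without KO4 and KO5), among them Mapk3, which encodes ERK1 (-0.13, and 0.12 without KO4 and KO5), Rps6ka1, a kinase downstream of ERK (-0.13), and Elk3, an SRF partner. Elk3 had 597, 522, 278 and 305 normalized counts in KO4, KO5, KO7 and KO8, against 253, 287, 266 and 334 in WT3, WT5, WT7 and WT8. KO7 and KO8 lay within the WT range, and the log2 fold change of 0.51 (limma adjusted p = 0.849) was 0.04 without KO4 and KO5. Of 20 ligands and receptors, 14 were positive with a median of 0.11, which turned to -0.01 without KO4 and to -0.05 without KO4 and KO5. The receptor genes Erbb3 (-0.55) and Erbb2 (-0.33) had lower means, and Pdgfb had a higher one (0.43, limma adjusted p = 0.849). These were at -0.14, -0.05 and 0.29 without KO4 and KO5.

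Downstream of Zfp36, 10 of 15 cytokine and related transcripts known to carry AU-rich elements were abundant enough to test, Ier3 among them. Of these, 9 had positive values and the median log2 fold change was 0.86, which was 0.08 without KO4 and -0.11 without KO4 and KO5. Genes had to average 10 normalized counts over the libraries used, so these medians are not over the same genes. A low gene that was high in KO4, such as Il6, could pass through KO4, which favours positive values. With no such filter the median was 1.00, and over genes averaging 50 or more it was 0.63. Il6 had 46.1, 14.3, 4.87 and 7.30 normalized counts in KO4, KO5, KO7 and KO8, against 1.13, 4.76, 6.64 and 2.48 in WT3, WT5, WT7 and WT8 (log2 fold change 1.69, limma adjusted p = 0.849). It averaged too few counts to be tested without KO4 and KO5. Lif, the most abundant of them besides Ier3, had a log2 fold change of 0.17, which was -0.16 without KO4 and KO5. Of 11 tested tristetraprolin relatives and other AU-rich binding factors, 8 were positive with a median of 0.03, including Zfp36l1 (0.19), Cnot1, the scaffold of the deadenylase complex (-0.16), and Mapkapk2, the kinase that inactivates tristetraprolin (0.20). Without KO4 and KO5 the median was 0.01, and Zfp36l1, Cnot1 and Mapkapk2 were at 0.02, -0.09 and 0.06.

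Of 15 NF-kappaB early response genes, a list that also holds Ier3, 14 were positive with a median of 0.23, which was -0.01 without KO4 and KO5. The exception was Relb, a subunit of the alternative pathway, at -0.24 (limma adjusted p = 0.849), and at -0.16 without KO4 and KO5. Tnip1 was at 0.03. The 16 heat shock genes, which respond to stress and handling as the 10 genes do, were split into 8 positive and 8 negative with a median of -0.05 (-0.18 without KO4 and KO5). Hspa8 (0.27), Hsp90ab1 (-0.15) and Hmox1 (0.56) did not share a direction, and were at 0.07, -0.32 and 0.19 without KO4 and KO5. Of 20 p53 targets, 8 were positive and 12 negative with a median of -0.05 (-0.22 without KO4 and KO5). Cdkn1a, the cell cycle inhibitor p21, was at 0.07 and Ccng1 at -0.06. Ddit4, a stress-induced inhibitor of mTORC1, had 1286, 1268, 772 and 846 normalized counts in KO4, KO5, KO7 and KO8, against 877, 799, 643 and 641 in WT3, WT5, WT7 and WT8. KO7 and KO8 lay within the WT range, and its log2 fold change of 0.47 (limma adjusted p = 0.849) was 0.14 without KO4 and KO5.

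**Figure D5:**
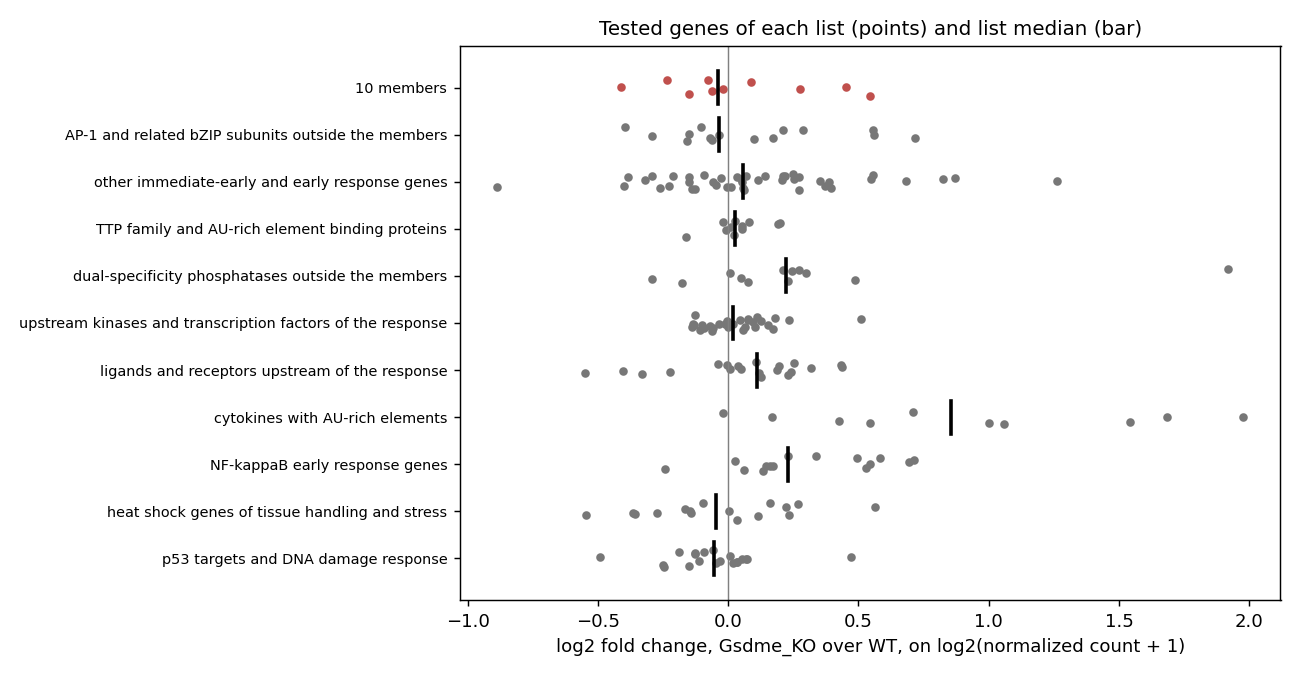
Log2 fold change, Gsdme_KO over WT, of each tested gene (points) and the median (bar) for the 10 immediate-early genes (top row) and 10 related lists. The medians lie between -0.05 and 0.23 except for the cytokine list at 0.86.

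The 5 other genes whose standardised log2 profiles over the 8 libraries came closest to the mean profile of the 10 genes were Klhl18, Coq8b, Tm2d1, Rffl and Pabpc1l, with root-mean-square differences of 0.204, 0.211, 0.259, 0.278 and 0.285. None of these is an AP-1 or Egr gene. Klhl18, the nearest, had a log2 fold change of -0.01 between Gsdme_KO and WT. The 10 genes themselves lay further from their mean profile, from 0.441 for Zfp36 to 1.22 for Jund. The median over all tested genes was 1.34, so the mean profile is not a pattern that all 10 genes share.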

How the data were processed

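The authors deposited 1 table of normalized counts, that is, a signal made by dividing read counts by 1 size factor per library. Build GRCm38 is named in the submitters' processing notes, as are DESeq2, featureCounts of Subread, HISAT2 and SAMtools. Their versions, the annotation and the strand setting were not given in the sources used here. Whole reads were recovered from the deposited signal for all genes within 0.01 reads. No library was a copy of another, as chi-square per degree of freedom was at least 12.5 in every pair. Columns were assigned to a genotype only, because the header numbers (KO4 to KO8 and WT3 to WT8) differ from the label numbers 1 to 4.

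Genotypes were compared with limma-trend (R 4.3.3, limma 3.58.1) on log2 values with a pseudocount of 1, for genes averaging 10 or more over the 8 libraries, with Benjamini-Hochberg adjustment over all of them and a threshold of 0.05. Fold changes on this scale understate those of low genes. Alternatives were edgeR 4.0.16 and DESeq2 1.42.0 on recovered reads, pseudocounts of 0.5 and 5, other filters, TMM, quantile normalization, array weights, libraries left out and, added later, a block on the header numbers. Where libraries were left out, the filter used the remaining libraries, so a list median there can cover a different set of genes. The p-values of limma, edgeR and DESeq2 set the genotype difference against the spread between mice, estimated with information shared between genes. This holds as far as the labels give 1 mouse per library. The steps were also run on simulated reads, drawn for each gene separately and without differences in cell content between libraries. That run cannot show how the tests behave with libraries such as KO4 and KO5. From each list the called genes were to be named, else the 2 most abundant and the 1 of smallest unadjusted p. The members and lists were chosen with earlier results of these data known. All 299 list symbols were matched. The transcripts and positions came from GENCODE M21 and the promoters from RefSeq.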

Additional observations from a re-analysis of the deposited data

Results flagged for a closer look

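3 of the 20 groups of 4 libraries (10 genes in 2 genotypes) held a library whose gap to its nearest neighbour took a share of the group's range above Dixon's 95% limit for 4 values. Chance flags about 1 in 20 groups. For Egr1, WT8 had 1026 normalized counts, the highest of the WT libraries, with a gap of 0.937 of the range. For Ier2, KO7 had 779.7, the lowest of the Gsdme_KO libraries, with a gap of 0.866 of the range. For Zfp36, WT8 had 2393, the lowest of the WT libraries, with a gap of 0.862 of the range. WT8 was thus low for Zfp36 and high for Egr1.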

How the results depend on the processing

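Across 20 other settings, 184 of 200 log2 fold changes of the 10 genes kept their direction and none passed the threshold, the smallest adjusted p being 0.428. The 16 changes of direction fell in Fosb, Jund, Egr1 and Zfp36, and their cause was not tested. Fosb was at 0.0075 without KO8, in a range of -0.48 to 0.0075 with 1 library left out. Jund was at 0.022 without KO4, 0.020 without WT5 and 0.042 without KO4 and KO5, in a range of -0.19 to 0.022. Egr1 was at 0.027 with edgeR, 0.023 with DESeq2, 0.10 without KO7, 0.09 without KO8 and 0.15 without WT8, in a range of -0.27 to 0.15. Zfp36 was at -0.11 with array quality weights, -0.044 without KO4 and -0.043 without KO4 and KO5, in a range of -0.044 to 0.17. Leaving out 1 library at a time, the log2 fold change of Fos ran from -0.56 to -0.28, that of Dusp1 from 0.25 to 0.58, that of Ier3 from 0.31 to 0.74, that of Jun from -0.25 to -0.02, that of Junb from 0.17 to 0.38 and that of Ier2 from -0.16 to -0.04. With array quality weights Fos was at -0.74. DESeq2 called 8 genes higher and 1 lower over the whole table, against 1 and 0 with limma. With 1 library left out, 0 to 1 were called higher, and without KO4 and KO5 0 were called higher and 1 lower. Without KO4 and KO5 the list medians were -0.015 for other dual-specificity phosphatases, -0.11 for cytokines and -0.22 for p53 targets. They cover the genes averaging 10 or more in the libraries kept. The median of upstream kinases and factors ran from 0.0023 to 0.053 with 1 library left out. Gsdme was at -3.03 with DESeq2 (adjusted p = 2.12e-07) and -2.37 without KO4 and KO5 (limma adjusted p = 0.0275). With all libraries its limma adjusted p was 0.786. The header numbers differ from those of the labels, so the planned replicate block on label numbers was not run. The headers share the numbers 5, 7 and 8 across genotypes, and a replicate block on these 6 libraries was added after the data were seen. Same-numbered libraries did not deviate together (correlations of -0.064, 0.086 and -0.051 over 16352 genes), and no Gsdme_KO library correlated best with its own number. With the block, and equally in these 6 libraries without it, Jund was at 0.050, Zfp36 at -0.019 and the cytokine median at -0.052, and limma called 0 genes. Fosb had the fewest reads (43 to 147 per library), and 4 libraries per genotype limit the precision of all 10 genes.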
